A study of Mus musculus with 12 samples.

Results

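The Frizzled receptor family comprises the 10 genes Fzd1 to Fzd10, taken by symbol from the count table of 18514 genes, and all 10 passed the filter on low counts that left 15484 genes. Colorectal tissue of 12 mice was sequenced, with 1 library per mouse and 3 mice a group (Ctrl, Ctrl_Swim, Model and Model_Swim). All were male C57BL/6 mice bought at 4 weeks of age, and the colon was taken out from below the cecum to the rectum. Model and Model_Swim mice received azoxymethane (AOM), a carcinogen, once at 10 mg/kg, followed by 3 cycles of drinking water with 2% dextran sulfate sodium (DSS), which injures the colon lining. Ctrl and Ctrl_Swim mice received neither agent and are called untreated here. Ctrl_Swim and Model_Swim mice swam up to 90 min per day, beginning before the treatment and lasting to the end, while the mice of both other groups stood in shallow water. Which stretch of the colon went into each library, and how much tumor that held in AOM/DSS mice, is not given in the sources used here. In such bulk tissue fewer cells of a type cannot be told apart from less RNA per cell.

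Frizzled proteins are cell surface receptors that span the membrane several times and bind secreted Wnt proteins through a cysteine-rich outer domain. With the co-receptors Lrp5 and Lrp6 they pass the signal to Dishevelled, which stabilises beta-catenin and switches on genes that keep intestinal crypt cells dividing. Some members act mainly without beta-catenin, in planar polarity, the alignment of cells within a sheet. By sequence the family falls into the subgroups Fzd1, Fzd2 and Fzd7, Fzd5 and Fzd8, Fzd4, Fzd9 and Fzd10, and Fzd3 and Fzd6, and the results follow these subgroups.

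In GRCm38.p6, Fzd1 lay on chromosome 5 from 4753839 to 4758216, Fzd9 on chromosome 5 from 135248938 to 135251047, Fzd5 on chromosome 1 from 64730558 to 64737750 and Fzd4 on chromosome 7 from 89404366 to 89410110. The coding sequence of 7 members (Fzd1, Fzd2, Fzd5, Fzd7, Fzd8, Fzd9 and Fzd10) was a single exon, that of Fzd4 had 2 exons and those of Fzd3 and Fzd6 had up to 6 exons. Gene models of the opposite strand overlapped Fzd3, Fzd5 and Fzd6, and the strand setting of the counting is not given in the sources used here, so reads of these pairs could not be told apart. RefSeq lists the symbol Fzd10 also as an older name of Fzd2. The length behind the deposited FPKM of Fzd10 was 2988 bases and that of Fzd2 was 3628 bases, each equal to the RefSeq span of the gene of that symbol, so the rows were taken as named.

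The stretches upstream of the start of 3 members are shown from RefSeq, because Fzd1 and Fzd9 changed in opposite directions after AOM/DSS and Fzd5 was the most abundant member. Each ends before the earlier of the starts in RefSeq and GENCODE, and capitals mark the TCF/LEF core (CTTTGA or CTTTGT) and the GC box (GGGCGG) on either strand, with overlapping GC boxes counted separately.
Fzd1, chr5:4758217-4758466, minus strand: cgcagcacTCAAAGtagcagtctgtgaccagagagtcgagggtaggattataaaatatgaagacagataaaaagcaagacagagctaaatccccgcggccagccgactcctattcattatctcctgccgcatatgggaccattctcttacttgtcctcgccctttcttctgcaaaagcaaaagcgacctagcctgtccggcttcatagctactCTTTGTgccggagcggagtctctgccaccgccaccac
Fzd5, chr1:64737752-64738000, minus strand: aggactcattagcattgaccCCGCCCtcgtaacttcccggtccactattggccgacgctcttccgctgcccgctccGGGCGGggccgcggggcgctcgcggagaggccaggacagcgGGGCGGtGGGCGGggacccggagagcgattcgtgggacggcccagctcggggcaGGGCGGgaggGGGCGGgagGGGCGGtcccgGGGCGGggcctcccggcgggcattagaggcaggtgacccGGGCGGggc
Fzd9, chr5:135251231-135251297, minus strand: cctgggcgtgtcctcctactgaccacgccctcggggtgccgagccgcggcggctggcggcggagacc
RefSeq promoters are described here for 6 of the 10 members (Fzd1, Fzd4, Fzd5, Fzd7, Fzd9 and Fzd10). Those of Fzd2, Fzd3, Fzd6 and Fzd8 were not examined. Over the 250 bases before the RefSeq start, that of Fzd1 held 2 matches to the TCF/LEF core, the letters bound by the transcription factors that work with beta-catenin, and no GC box. The Fzd5 window held 9 GC boxes, the Fzd4 window 7 and the Fzd9 and Fzd10 windows 1 each, and none of these 4 held the TCF/LEF core. The Fzd7 window held both, with 1 TCF/LEF core and 6 GC boxes. By the GENCODE starts, the whole Fzd10 window lay inside the gene. So did all of the Fzd9 window but its first 67 bases, its GC box included. Among all 32851 RefSeq promoters the TCF/LEF core stood in 27.6% and the GC box in 32.7% of windows of this length. The Fzd1 window was 51.2% G or C with 12 CpG sites and the Fzd9 window 76.4% with 42 CpG sites, beside medians of 52.4% and 6 over all promoters. These are matches of letters, and whether any factor binds there was not measured.

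The libraries held 17256953 to 19451055 counts (median 18293783), so a count of 3 corresponded to between 0.153 and 0.172 CPM (counts scaled to library size by the TMM method). Markers of colon epithelium were present throughout, with Epcam between 1251 and 1658 CPM. A pair of Model libraries stood apart. Model 1 and Model 3 held pancreatic acinar genes at a summed 49611 and 24212 CPM, beside 91.7 to 211 CPM in the other 10 libraries. In Model 3 the genes of the distal colon and rectum position list summed to 20.5 CPM, beside 77.1 to 251 CPM elsewhere. Hoxd12 was at 0, Hoxd13 at 0.287 and Hoxb13 at 7.58 CPM there, while Hoxa13, at 12.6 CPM, lay within the range of the other libraries. The squamous epithelium list of Model 3 summed to 25.8 CPM, beside 599 and 1521 CPM in Model 1 and Model 2 and 11.01 to 16.1 CPM in Ctrl mice. The calls among the members and the counts of pathway genes between Model and Ctrl were also made without Model 1 and without Model 3. A fit without both leaves Model 2 as the only Model mouse, so its calls are not given.

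Compared per length, as FPKM within each library, Fzd5 was the most abundant Frizzled transcript in every group by mean, from 13.5 to 24.1 FPKM over the 12 mice. Fzd1 followed at 8.12 to 15.4 FPKM. Fzd7 (4.81 to 6.72), Fzd8 (3.12 to 5.78), Fzd2 (3.41 to 4.98), Fzd4 (2.25 to 4.99) and Fzd6 (2.30 to 6.29) made a middle tier in FPKM, and Fzd9, Fzd3 and Fzd10 stayed under 1.57 FPKM in every mouse. In Ctrl mice the ranges of Fzd5 and Fzd1 did not overlap each other or those of any other member, while those of Fzd8 and Fzd7, of Fzd4 and Fzd6, and of Fzd3 and Fzd10 overlapped. In Model mice Fzd5 and Fzd1 overlapped, as did each neighbouring pair from Fzd7 down to Fzd4 in that order of means. The order of the middle tier depends on the lengths used, since GENCODE gives Fzd8 and Fzd4 1.79 and 1.82 times the length behind the deposited FPKM.

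As a share of the summed FPKM of all 10 members, Fzd5 made up 40.9% to 43.8% in Ctrl, 36.7% to 41.1% in Ctrl_Swim and 35.2% to 37.4% in Model_Swim mice. In the Model group it made up 25.0% in Model 1, 26.0% in Model 2 and 39.7% in Model 3. Fzd1 rose in share over the same libraries, from 15.6% to 17.2% in Ctrl mice to 28.6%, 26.4% and 21.2% in Model 1, Model 2 and Model 3. The ratio of Fzd1 to Fzd5 FPKM was therefore above 1 in Model 1 (1.14) and Model 2 (1.02) and between 0.378 and 0.685 in the other 10 mice, Model 3 included (0.535). The summed FPKM of the family varied less, from 52.1 in a Ctrl mouse to 62.5 in a Model_Swim mouse. These shares are a description, with no test.

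**Figure D1:**
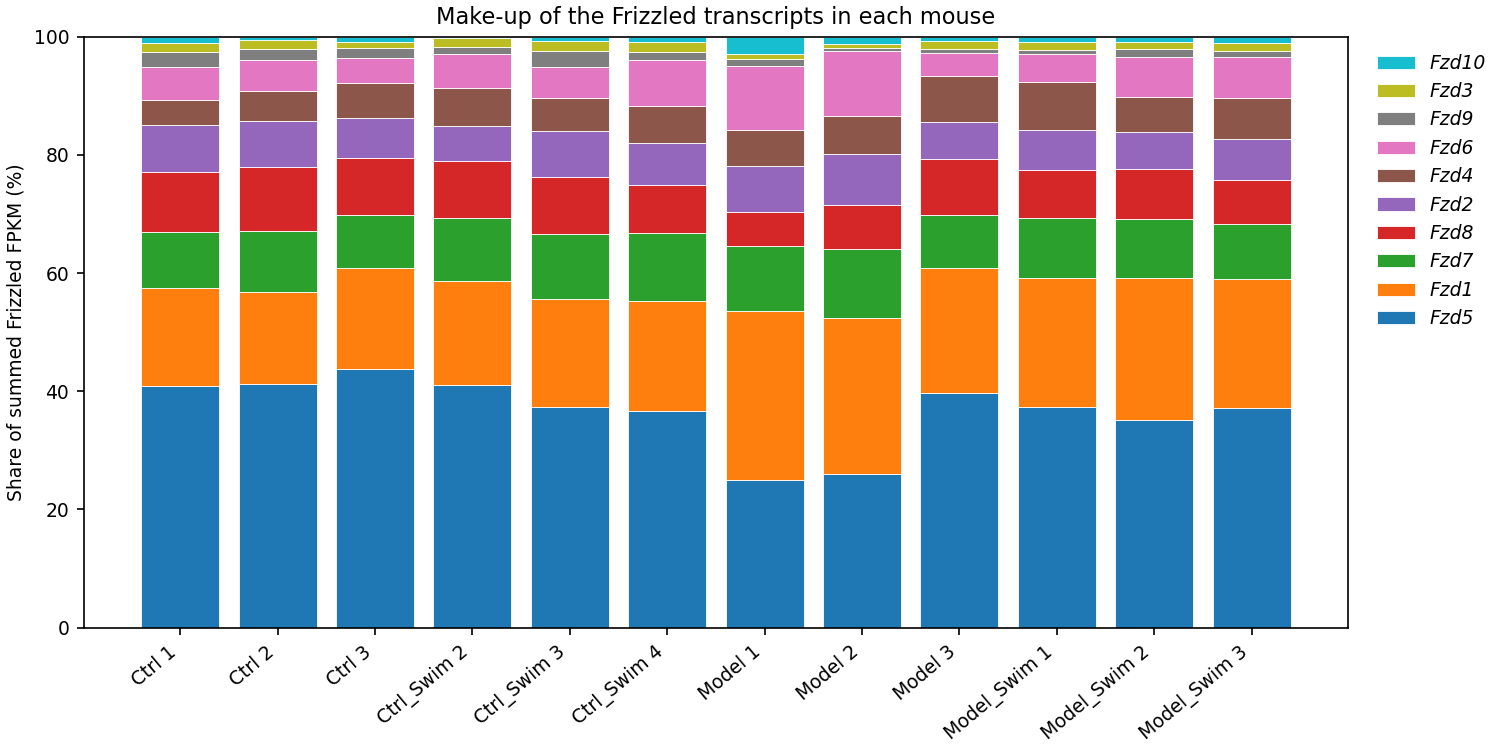
Stacked bars give the share (%, vertical axis from 0 to 100) of each Frizzled gene in the summed Frizzled FPKM of each of the 12 libraries (horizontal axis, by group and replicate). Fzd5 falls to 25.0% and 26.0% in Model 1 and Model 2 and lies between 35.2% and 43.8% in the other 10 libraries.

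The comparison of Model with Ctrl asked what AOM/DSS changed in mice that did not swim. Of the 10 Frizzled genes, Fzd1 rose, Fzd9 fell, and 8 did not pass the test (edgeR's quasi-likelihood test, Benjamini-Hochberg adjusted p under 0.05 over all genes tested). Over all genes tested 32.7% passed (16.5% higher and 16.2% lower), so 2 of 10 was no larger a share than in the table as a whole. Model and Ctrl mice did not overlap in 2 members, Fzd1 and Fzd9, beside 44.2% of all genes tested. The median log2 fold change was 0.08 over the members and 0.01 over all genes.

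**Figure D2:**
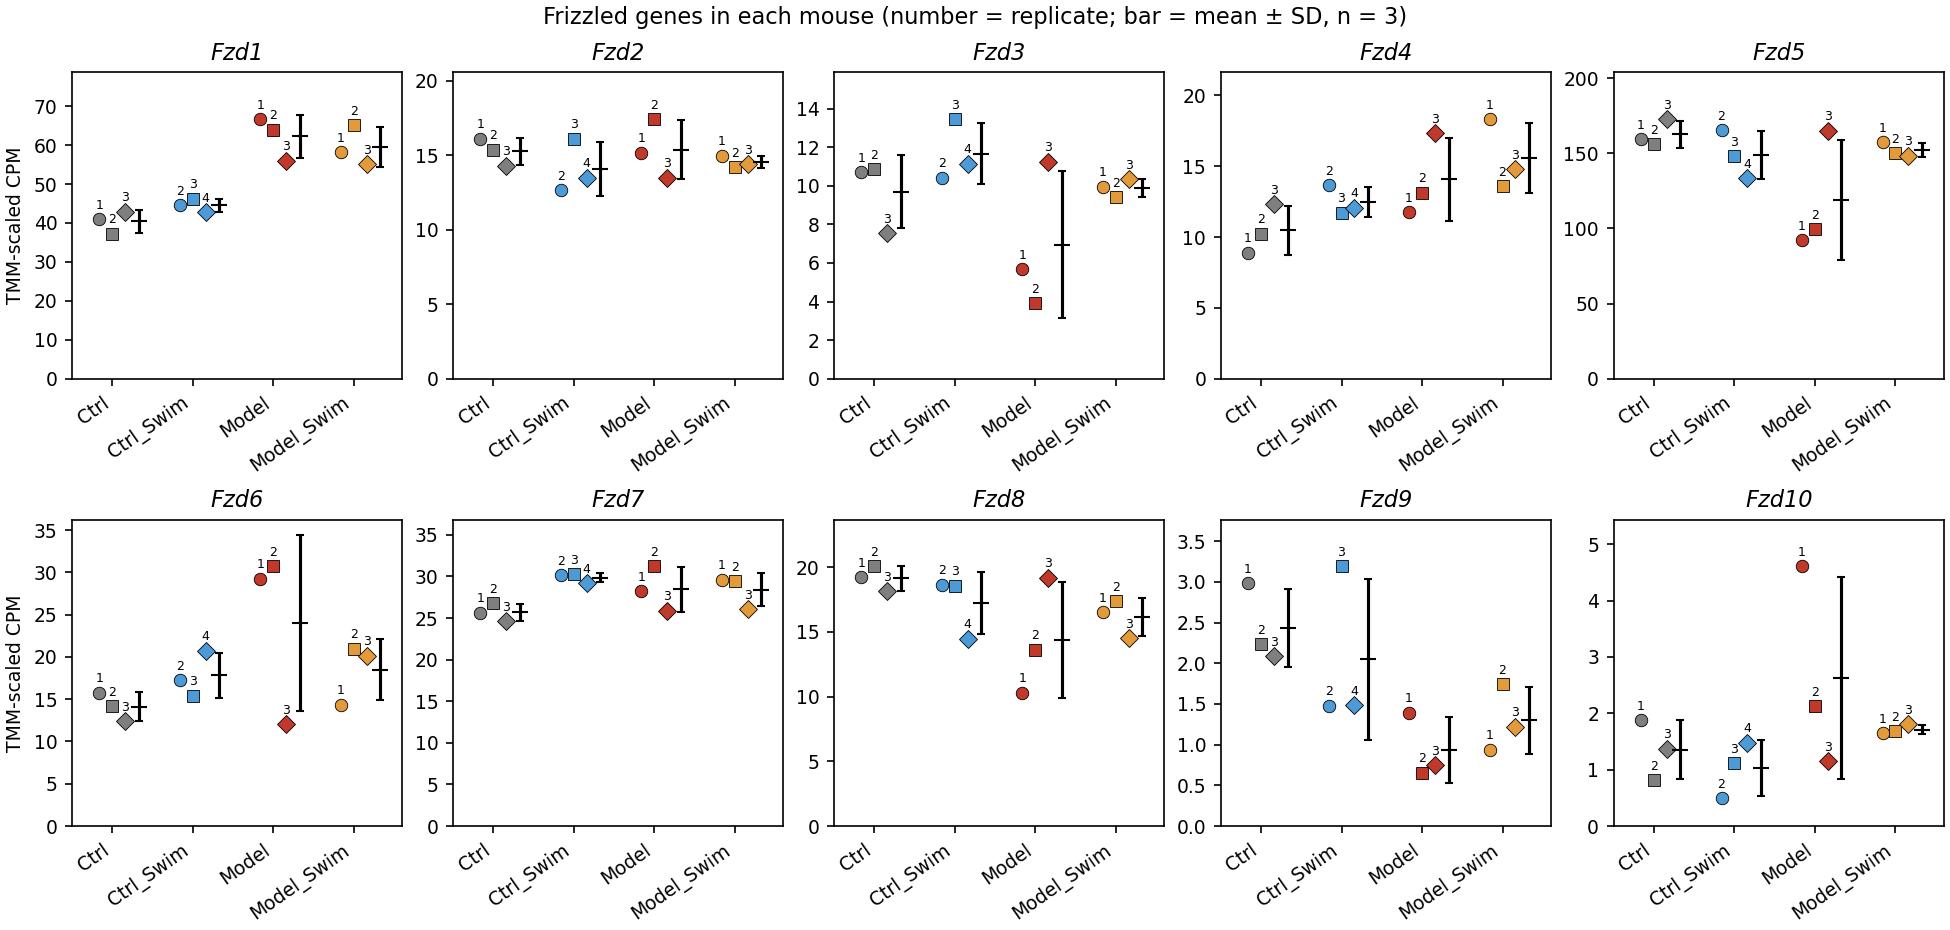
TMM-scaled CPM (vertical axes from 0) of each Frizzled gene in each mouse, by group on the horizontal axis, with the replicate number beside each point and the mean ± SD (n = 3) as a bar. For Fzd1 the 6 AOM/DSS mice lie between 55.0 and 66.7 CPM and the 6 untreated mice between 37.3 and 46.2 CPM, whereas for Fzd3, Fzd5, Fzd6 and Fzd8 Model 3 lies apart from Model 1 and Model 2.

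Fzd1, a Wnt receptor close in sequence to Fzd2 and Fzd7, was at 41.0, 37.3 and 42.9 CPM in Ctrl 1 to 3 and at 66.7, 64.0 and 56.0 CPM in Model 1 to 3. The Ctrl_Swim mice lay at 44.6, 46.2 and 42.8 CPM and the Model_Swim mice at 58.2, 65.2 and 55.0 CPM. Every AOM/DSS mouse lay above every untreated mouse. The log2 fold change was 0.62 ± 0.09 (SE; edgeR adjusted p = 0.000880; 95% interval 0.43 to 0.81) between Model and Ctrl. It was 0.42 ± 0.09 (edgeR adjusted p = 0.0250) between Model_Swim and Ctrl_Swim, where Fzd1 was the single member of 10 that passed, beside 5.18% of all genes tested. Both groups did not overlap in 3 members (Fzd1, Fzd3 and Fzd10), beside 32.4% of all genes. The Fzd1 call was lost when any of the 6 mice of those groups was left out, with adjusted p from 0.0600 to 0.105.

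The markers of fibroblasts, the cells that lay down connective tissue, moved with Fzd1. In Model vs Ctrl 9 of the 10 rose, and the list summed to 1783 to 2025 CPM in Ctrl, 1605 to 1919 in Ctrl_Swim, 3396 to 3434 in Model and 2456 to 3322 in Model_Swim mice. Within it, the collagen gene Col3a1 was at 557 to 637 CPM in Ctrl and 937 to 1035 CPM in Model mice. The colon epithelium list moved the other way, with 8 of 10 markers lower in Model. Macrophage markers (7 of 7), B cell markers (6 of 7), T cell markers (5 of 6) and neutrophil markers (5 of 6) also rose. With the fibroblast list as a covariate the log2 fold change of Fzd1 was 0.73, and no gene passed (edgeR, 0 of 15484). Of these genes 463, Fzd1 and Fzd9 among them, had an unadjusted p under 0.05, no larger a share than chance gives. The list separated Model from Ctrl mice without overlap, so list and treatment cannot be told apart in this fit. The part of these cell types in the Fzd1 difference was not tested further.

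Fzd2, of the same subgroup, was the steadiest member after Fzd7, at 12.7 to 17.4 CPM over all 12 mice, with a log2 fold change of 0.01 (95% interval -0.26 to 0.28; edgeR adjusted p = 0.957) between Model and Ctrl. Fzd7, a receptor of intestinal stem cells, was at 25.6, 26.8 and 24.6 CPM in Ctrl mice, 28.2, 31.2 and 25.9 in Model mice, 30.1, 30.3 and 29.2 in Ctrl_Swim mice and 29.6, 29.4 and 26.1 in Model_Swim mice. Its Model and Ctrl mice overlapped, and the log2 fold change of 0.15 (95% interval -0.03 to 0.33) did not pass in edgeR (adjusted p = 0.184). The crypt base and stem cell markers summed to 770 to 872 CPM in Ctrl and 620 to 859 CPM in Model mice, with Slc12a2 the largest part (343 to 547 CPM). Of these 8 markers 0 rose, 3 fell and 5 did not pass. In Model 1, Lgr5 (54.1 CPM) and Axin2 (156 CPM) lay above all Ctrl mice.

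Fzd9, a receptor studied mostly in bone and brain, had few reads, between 12 and 60 counts per library. It was at 2.98, 2.24 and 2.09 CPM in Ctrl 1 to 3 and at 1.39, 0.654 and 0.746 CPM in Model 1 to 3, so all Model mice lay below all Ctrl mice. The Ctrl_Swim mice lay at 1.48, 3.19 and 1.48 CPM, and those at 1.48 CPM were close to Model 1. Model differed from Ctrl by a log2 fold change of -1.38 ± 0.42 (SE; edgeR adjusted p = 0.0291; 95% interval -2.31 to -0.45). That call was lost without any 1 of Ctrl 1, Ctrl 2, Ctrl 3, Model 2 or Model 3, with adjusted p from 0.0574 to 0.106, and with the squamous list as a covariate (-1.17, adjusted p = 0.163). Fzd9 was the single member past the study's added cutoff of a fold over 2 or under 0.5, which 7.43% of all genes tested passed.

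Fzd4, which also binds the non-Wnt ligand Norrin and is known from blood vessels, was at 8.89, 10.2 and 12.3 CPM in Ctrl 1 to 3, 11.7, 13.1 and 17.3 in Model 1 to 3, 13.6, 11.7 and 12.1 in Ctrl_Swim 2 to 4 and 18.3, 13.6 and 14.8 in Model_Swim 1 to 3. Model overlapped Ctrl, and the log2 fold change was 0.42 ± 0.18 (edgeR adjusted p = 0.0850). Without Model 1 it was 0.55 and Fzd4 passed (edgeR adjusted p = 0.0380). Endothelial markers summed to 415 to 441 CPM in Ctrl and 483 to 541 CPM in Model mice, and 3 of 12 rose. They summed to 482 to 624 CPM in Ctrl_Swim and 491 to 514 CPM in Model_Swim mice. The part of endothelial cells in the Fzd4 values was not tested. Fzd10, whose expression in adults is sparse, was at 1.88, 0.817 and 1.37 CPM in Ctrl mice and 4.61, 2.12 and 1.15 CPM in Model mice, from 9 to 86 counts per library over all groups. Its log2 fold change was 0.95 with a 95% interval from -0.20 to 2.10 (edgeR adjusted p = 0.179).

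Fzd5, the main Frizzled receptor of the gut epithelium and needed for Paneth cells to mature, was at 159, 156 and 173 CPM in Ctrl 1 to 3. In Model 1 and Model 2 it was at 92.2 and 99.4 CPM, below all other 10 mice, while Model 3 was at 165 CPM, within the Ctrl range. Fzd8, its closest relative, was at 19.2, 20.1 and 18.1 CPM in Ctrl 1 to 3 and at 10.3, 13.6 and 19.2 CPM in Model 1 to 3. The log2 fold changes over all 3 Model mice were -0.45 ± 0.18 for Fzd5 (edgeR adjusted p = 0.0731) and -0.41 ± 0.19 for Fzd8 (edgeR adjusted p = 0.115).

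The planar polarity receptors Fzd3 and Fzd6 showed the same division among the Model mice. Fzd3, a guidance receptor of growing axons, was at 10.7, 10.9 and 7.53 CPM in Ctrl 1 to 3 and at 5.68, 3.92 and 11.3 CPM in Model 1 to 3. Fzd6, known for orienting hair follicles, was at 15.8, 14.2 and 12.4 CPM in Ctrl mice and at 29.3, 30.7 and 12.1 CPM in Model 1 to 3. Model 1 and Model 2 were thus the lowest pair of all 12 mice in Fzd3 and the highest pair in Fzd6, and Model 3 lay beside the Ctrl mice in both. Over all 3 Model mice the log2 fold change was -0.48 ± 0.31 for Fzd3 (edgeR adjusted p = 0.249) and 0.77 ± 0.29 for Fzd6 (edgeR adjusted p = 0.0649).

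**Figure D3:**
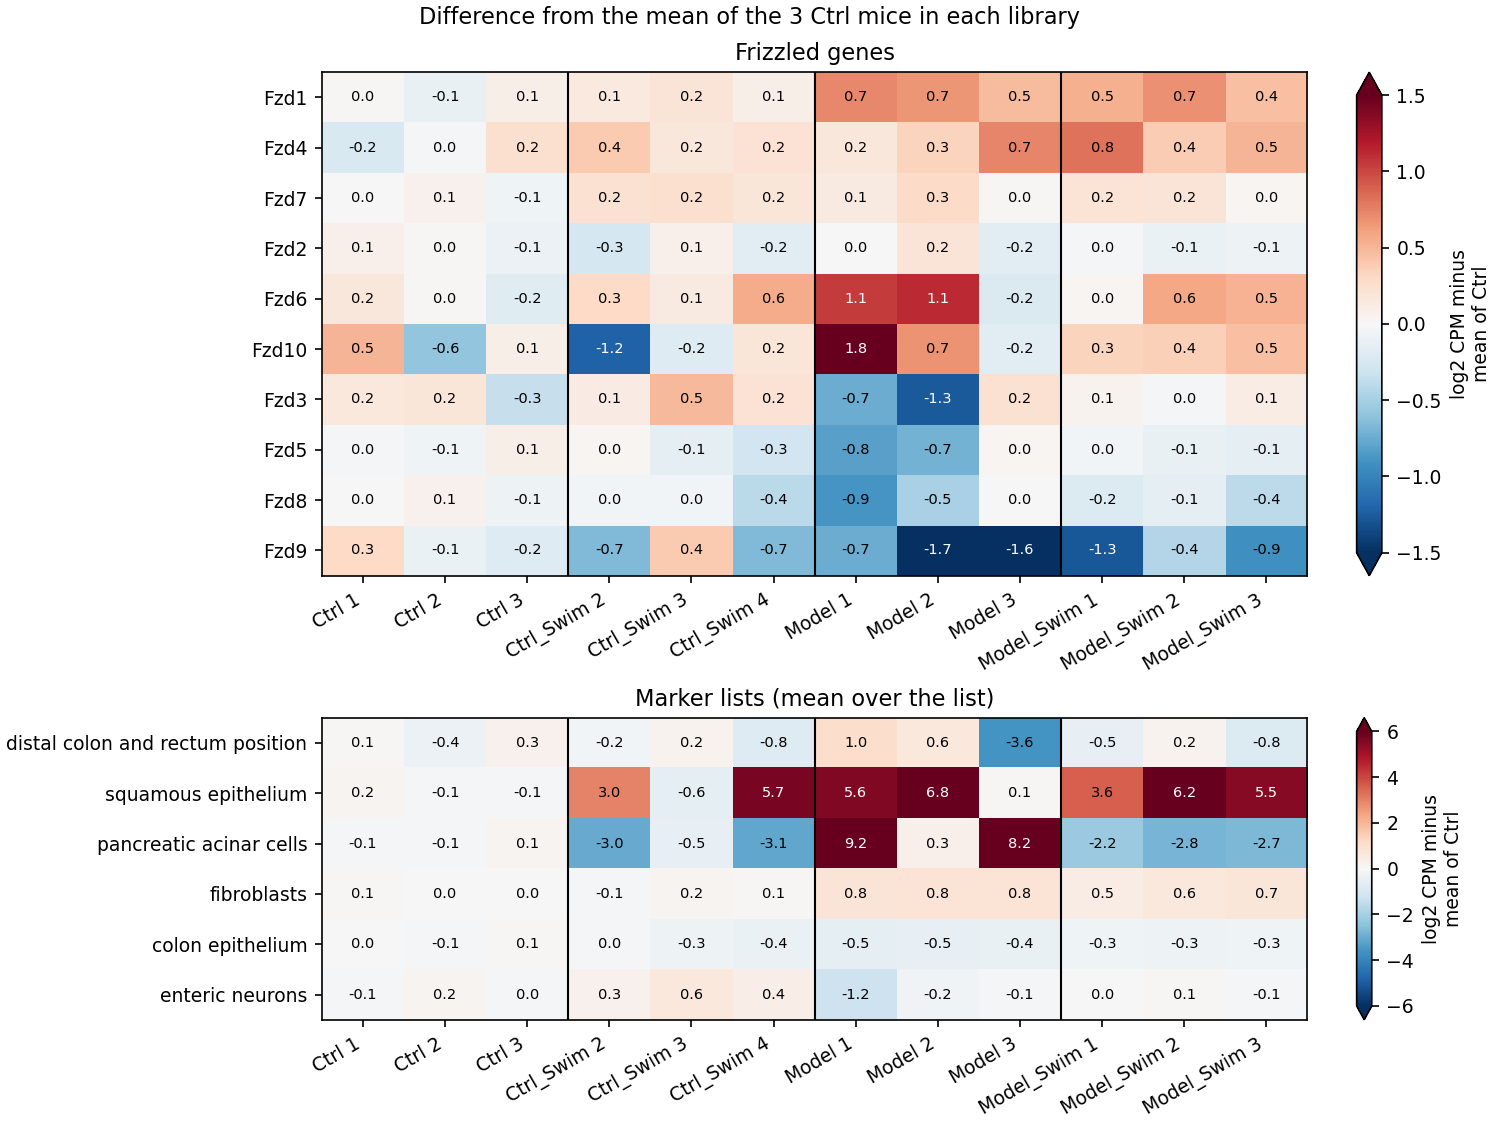
Colours and printed values give log2 CPM minus the mean of the 3 Ctrl mice in each library (columns) for the 10 Frizzled genes (upper panel) and for the mean over 6 marker lists (lower panel, wider colour scale). Model 3 is at -3.57 in the position list and at 0.07 in the squamous list, where Model 1 and Model 2 are at 5.57 and 6.81.

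In 7 of the 10 members (Fzd1, Fzd3, Fzd5, Fzd6, Fzd8, Fzd9 and Fzd10) Model 1 and Model 2 both lay beyond all 6 untreated mice on the same side, beside 37.5% of all genes tested. In 4 of these 7 (Fzd3, Fzd5, Fzd8 and Fzd10) Model 3 lay inside the range of the untreated mice, beside 32.8% over all genes with that pattern, in Fzd6 it lay below that range, and in Fzd1 and Fzd9 it lay on the side of Model 1 and Model 2. This count was made after the values were seen. Without Model 3, 5 members passed between Model and Ctrl in edgeR, Fzd1, Fzd3 (-0.999, adjusted p = 0.00540), Fzd5 (-0.75, adjusted p = 0.000245), Fzd6 (1.10, adjusted p = 0.00102) and Fzd8 (-0.67, adjusted p = 0.00668), beside 35.8% of all genes. With the position list as a covariate, a fit added after the values were seen, these 5 and Fzd9 passed, beside 37.1% of all genes. Against the Ctrl mean, Model 3 was at -3.57 in that list and every other library between -0.84 and 1.03. The covariate therefore mostly marks Model 3, and this fit is not a separate result from the one without Model 3. With the squamous list as a covariate, Fzd1 was the single member that passed, beside 17.2% of all genes, and Fzd6 was at 0.04 (adjusted p = 0.909). Other marker lists divided the Model mice too, by their sums. The mature colonocyte list summed to 3850, 6265 and 12973 CPM in Model 1 to 3, beside 14509 to 15076 CPM in Ctrl mice. Abundant genes weigh most in that sum, such as Car1 (410, 277 and 4731 CPM in Model 1 to 3, 6385 to 6821 in Ctrl mice). Of its 11 genes, 2 rose, 3 fell and 6 did not pass between Model and Ctrl. Car4 was higher in Model 2 (657 CPM) than in Ctrl mice (275 to 357 CPM). The adipocyte list summed to 61.2, 45.8 and 274 CPM in Model 1 to 3, beside 29.4 to 82.5 CPM in Ctrl mice. The part of tissue position, squamous epithelium, colonocytes and adipocytes in the Frizzled values was not tested further.

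Over the 12 libraries Fzd5 and Fzd6 ran opposite to each other (Pearson's r = -0.89 and Spearman's rho = -0.75 of log2 CPM), and r was -0.91 after the group means were taken out. Fzd5 and Fzd8 ran together (r = 0.88, rho = 0.71). Over the 10 libraries other than Model 1 and Model 2, r was -0.74 for Fzd5 with Fzd6 and 0.66 for Fzd5 with Fzd8. The gene most like Fzd5 was Tmigd1 (r = 0.98, rho = 0.89), followed by Fam13a and Trpm4. Fzd6 was most like Ppp1r13l (r = 0.94, rho = 0.94), Celsr2 and Skint3, and Fzd1 most like Bmp1 (r = 0.98, rho = 0.93), Igfbp5 and Tead1. Fzd3 was most like Unc5d (r = 0.95, rho = 0.47), Ntrk2 and Sorcs1, and Fzd9 most like Hpdl (r = 0.95, rho = 0.94) and Ube2q1. The closest gene was Tada3 for Fzd8 (r = 0.96), Agfg1 for Fzd10 (r = 0.92), Klhl42 for Fzd4 (r = 0.92), Ptpru for Fzd7 (r = 0.90) and Fkbp9 for Fzd2 (r = 0.90). These 12 points share tissue make-up and include Model 1 and Model 2, so they are descriptions without a test.

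The comparison of Model_Swim with Model asked whether swimming changed the treated colon. None of the 10 Frizzled genes passed (0 of 10 in edgeR, DESeq2 and limma alike, lowest edgeR adjusted p = 0.422), none had an unadjusted p under 0.05 in edgeR (13.6% of all genes did), and both groups overlapped in all 10, beside 16.9% of all genes without overlap. Over all genes tested 0.0710% passed (11 genes). Fzd5 was at 157, 150.2 and 148 CPM in Model_Swim 1 to 3 (log2 fold change 0.35, 95% interval -0.04 to 0.75), and Fzd3 at 9.96, 9.41 and 10.3 CPM (0.51, 95% interval -0.17 to 1.19). Fzd1 differed least among the members that passed elsewhere (-0.07, 95% interval -0.25 to 0.12), and Fzd9 was at 0.936, 1.74 and 1.22 CPM in Model_Swim mice (0.47, 95% interval -0.46 to 1.41). The differences of Fzd6 (-0.38, 95% interval -1.02 to 0.26) and Fzd10 (-0.62, 95% interval -1.75 to 0.52) were downward.

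Without Model 3, Fzd3 (1.05, edgeR adjusted p = 0.0192), Fzd5 (0.67, edgeR adjusted p = 0.00175) and Fzd6 (-0.69, edgeR adjusted p = 0.0420) passed between Model_Swim and Model. In that fit 882 of 15681 genes tested passed. The libraries also divided by stray reads of pancreatic genes. The lipase Pnlip was at 3.88 CPM or more in the Ctrl, Model and Ctrl_Swim 3 libraries and at 0.385 CPM or less in the others, all Model_Swim libraries among them, so swimming and this division of the libraries cannot be told apart in treated mice. Among libraries with the stray reads, Model minus Ctrl was 0.62 in mean log2 CPM for Fzd1 and -1.34 for Fzd9. Among those without, Model_Swim minus Ctrl_Swim was 0.44 for Fzd1 and -0.22 for Fzd9.

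**Figure D4:**
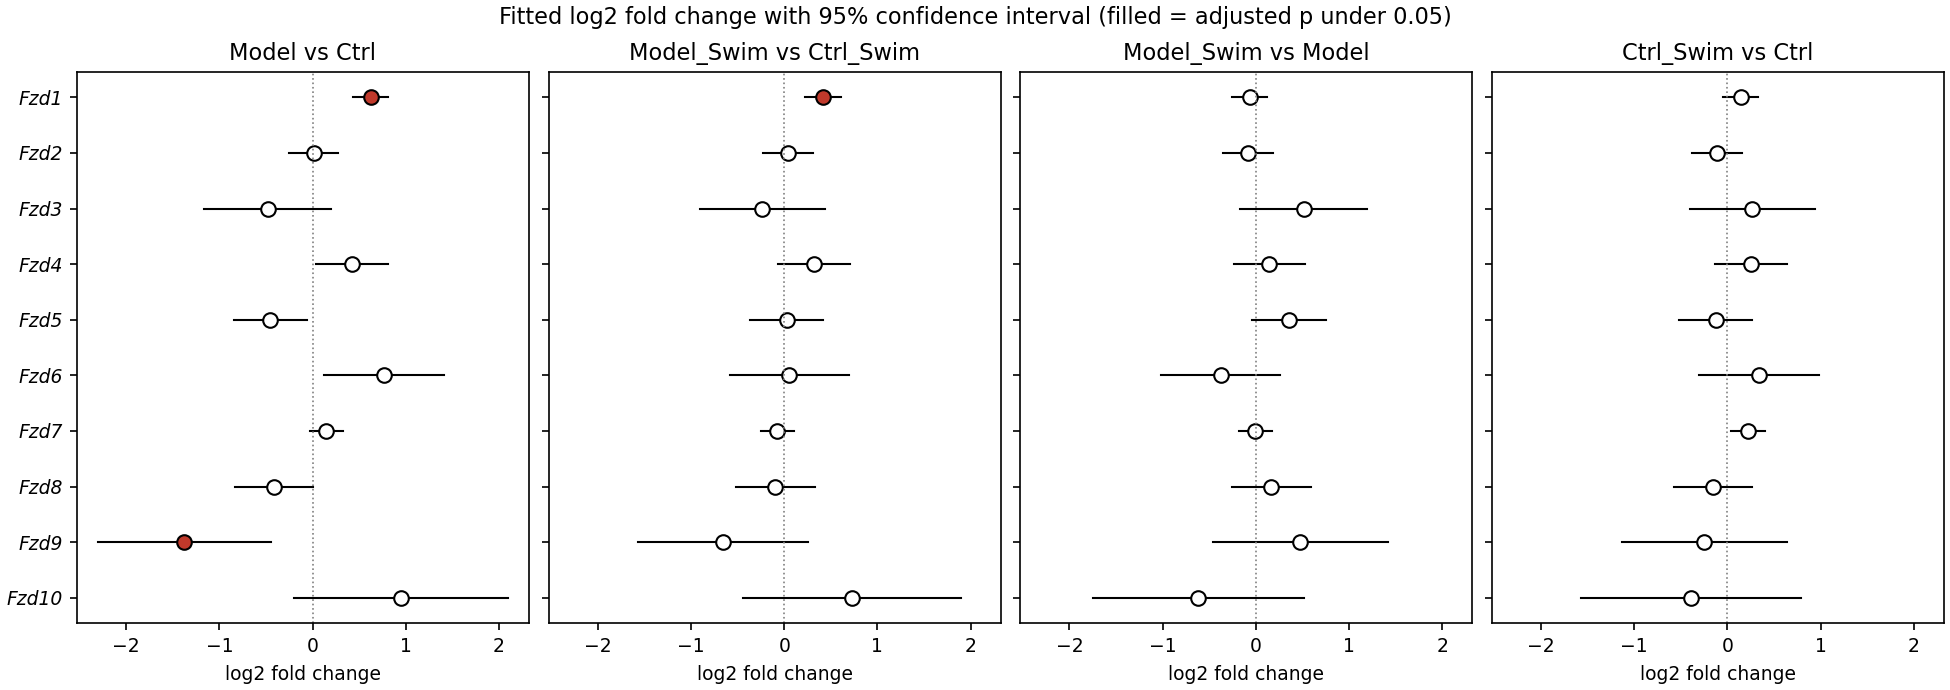
Points give the fitted log2 fold change (horizontal axes) of each Frizzled gene (rows) in the comparison named above each panel, with 95% confidence intervals as lines, and filled points passed at an adjusted p under 0.05. Fzd1 and Fzd9 are filled in Model vs Ctrl, Fzd1 in Model_Swim vs Ctrl_Swim, and none in Model_Swim vs Model or Ctrl_Swim vs Ctrl.

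Swimming in untreated mice (Ctrl_Swim vs Ctrl) passed the test in 0 of 10 members in edgeR, DESeq2 and limma, beside 0.969% of all genes tested in edgeR. Fzd7 alone had an unadjusted edgeR p under 0.05 (0.0218, beside 17.6% of all genes under that threshold), a log2 fold change of 0.22 (95% interval 0.04 to 0.40; adjusted p = 0.215) and was the single member without overlap, beside 27.4% of all genes, with every Ctrl_Swim mouse above every Ctrl mouse. Fzd5 was at 165, 148 and 133 CPM and Fzd6 at 17.3, 15.4 and 20.8 CPM in Ctrl_Swim 2 to 4, both overlapping the Ctrl mice. Ctrl_Swim 4, lowest of the untreated mice in Fzd5 and Fzd8 and highest in Fzd6, was also the untreated mouse with the highest squamous list (454 CPM, beside 7.02 to 70.8 in the other 5). It was at the extreme of the untreated mice in other lists as well. The B cell list (140 CPM) and T cell list (67.6 CPM) were highest there, and the position list (77.1 CPM) and colon epithelium list (13141 CPM) lowest. The part of these lists in the Frizzled values was not tested.

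Taken over both swimming states, 6 AOM/DSS mice against 6 untreated mice, 3 members passed in edgeR, beside 33.4% of all genes tested. Fzd1 was higher (0.52 ± 0.06, adjusted p = 0.000254), Fzd4 was higher (0.37 ± 0.12, adjusted p = 0.0397) and Fzd9 was lower (-1.02 ± 0.30, adjusted p = 0.0223). These mice include those of the comparisons above and are not independent of them. Fzd1 was the single member without overlap between the 6 and 6 mice, beside 12.4% of all genes. For Fzd4 the 6 treated mice lay between 11.7 and 18.3 CPM and the 6 untreated mice between 8.89 and 13.6 CPM. The Fzd4 call was lost without Ctrl 1, Ctrl 2, Ctrl_Swim 3, Ctrl_Swim 4, Model 3, Model_Swim 1 or Model_Swim 3, with adjusted p from 0.0518 to 0.0821. The Fzd9 call was lost without Ctrl 1, Ctrl_Swim 3, Model 2, Model_Swim 1 or Model_Swim 3, with adjusted p from 0.0520 to 0.0628.

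The interaction of swimming with AOM/DSS, which tests whether the swimming difference depends on treatment, passed in 0 of 10 members (lowest edgeR adjusted p = 0.322) and in 0 of all genes tested (0%). None of the members and 2947 genes had an unadjusted p under 0.05, and DESeq2 and limma also passed no member. Fzd5 had an interaction of 0.48 (95% interval -0.08 to 1.04) and Fzd6 of -0.71 (95% interval -1.62 to 0.20). Without Model 3 these were 0.78 (edgeR adjusted p = 0.00767) and -1.05 (edgeR adjusted p = 0.0342), and 716 of 15681 genes tested passed.

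Of 79 genes tested that work around the Frizzled receptors, in 9 lists, 27 rose between Model and Ctrl, 0 fell and 52 did not pass. Of the Wnt ligands 7 of 14 tested rose (median log2 fold change 0.91), of the secreted antagonists 6 of 9 (1.32) and of the planar polarity genes 5 of 9 (0.43). The co-receptors and other Wnt receptors rose in 2 of 11 (0.12), the regulators of Frizzled turnover in 2 of 7 (0.50), the Dishevelled and beta-catenin chain in 2 of 13 (0.08), the beta-catenin targets in 3 of 15 (0.35), the other extracellular agonists in 1 of 3 (0.88), and ligand making and release, Porcn and Wls, in 0 of 2 (0.14). Notum stands among both the antagonists and the targets, and Lgr5, Rnf43 and Znrf3 among both the turnover regulators and the targets. The counts by list therefore overlap, while the 79 genes are each counted once. Each count stands beside the 16.5% of all genes that rose and a median of 0.01 over all genes. Without Model 1, 19 of the 79 rose and 3 fell (16.7% and 15.5% of all genes), and the count that rose went from 2 to 0 in the Dishevelled and beta-catenin chain, from 3 to 1 in the beta-catenin targets and from 5 to 2 in planar polarity, while the antagonists stayed at 6 of 9. Without Model 3, 36 rose and 0 fell (18.6% and 17.2% of all genes), with 8 of the 15 beta-catenin targets among them. Without both, Model 2 was the only Model mouse, so no counts are given. The median log2 fold change of the 9 lists then lay between 0.03 and 1.27, beside -0.01 over all genes. These fits of the pathway genes were added after seeing the data. Between Model_Swim and Model no gene of any of these lists passed.

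Several of these genes were near 0 in untreated mice and highest in Model 1. Among the ligands, Wnt10a was at 0, 0.218 and 0 CPM in Ctrl 1 to 3 and at 14.0, 2.45 and 0.115 CPM in Model 1 to 3 (edgeR adjusted p = 0.0115), and Wnt6 was at 0.442, 0.763 and 1.15 CPM and at 21.4, 1.69 and 0.918 CPM (edgeR adjusted p = 0.0249). Wnt7b was highest in Model 2, at 4.41 CPM (edgeR adjusted p = 0.0323). Model 3 lay within the Ctrl range for these 3 ligands. Without Model 1, Wnt10a and Wnt7b passed (edgeR adjusted p = 0.0359 and 0.0489) and Wnt6 did not (edgeR adjusted p = 0.213). Rspo3, which keeps Frizzled receptors on the surface through the Lgr receptors, had less spread, at 5.35, 4.85 and 3.96 CPM in Ctrl mice and 8.47, 8.55 and 9.47 CPM in Model mice, with all Model mice above all Ctrl mice (edgeR adjusted p = 0.00237).

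Among the antagonists, Notum, an enzyme that strips the lipid from Wnt proteins, was at 0.164 to 0.552 CPM in Ctrl mice and at 104, 9.21 and 0.631 CPM in Model 1 to 3 (edgeR adjusted p = 0.00738). Wif1, which binds Wnt proteins outside the cell, was at 149.5, 17.2 and 3.44 CPM in Model 1 to 3 and 2.36 to 3.82 CPM in Ctrl mice (edgeR adjusted p = 0.0110). Dkk2, a ligand of Lrp5 and Lrp6, was at 23.6, 5.94 and 2.12 CPM in Model 1 to 3 (edgeR adjusted p = 0.00939). In these 3 antagonists all 3 Model_Swim mice also lay above all 6 untreated mice, with Notum at 24.2, 27.8 and 29.7 CPM. Without Model 1 all 3 passed, with edgeR adjusted p from 0.0105 to 0.0205. The fitted fold changes of such genes depend on the few reads in Ctrl mice and are not given.

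Of the other named genes, Ptk7, a co-receptor of planar polarity, was at 25.8 to 27.0 CPM in Ctrl and 31.5 to 66.1 CPM in Model mice, and Adgra2, which helps Wnt7 proteins signal, at 18.0 to 22.4 and 30.2 to 37.9 CPM, both without overlap. The turnover regulators Lgr6 and Shisa3, the transcription factors Lef1 and Tcf7, the targets Sp5 and Nkd1 and the polarity genes Vangl2, Celsr2 and Celsr1 passed as well, with edgeR adjusted p from 0.00758 to 0.0444. Without Model 1, Lef1, Tcf7, Sp5, Nkd1, Vangl2, Celsr2 and Celsr1 no longer passed (edgeR adjusted p from 0.0709 to 0.218), and without Model 3 Tcf7 did not (edgeR adjusted p = 0.0557). Without both, with Model 2 as the only Model mouse, the log2 fold change was 0.68 for Shisa3, 0.34 for Tcf7 and 0.57 for Vangl2. Nkd1, a feedback inhibitor of Dishevelled, was at 18.5 to 21.2 CPM in Ctrl mice and at 216, 38.95 and 21.2 CPM in Model 1 to 3. Celsr2, a cadherin that works with Fzd3 and Fzd6 in planar polarity, was at 11.9 to 13.1 CPM in Ctrl mice and at 28.5, 32.5 and 11.996 CPM in Model 1 to 3, high in the same pair of mice as Fzd6. The enzymes that remove Frizzled receptors from the surface, Rnf43 and Znrf3, were at 37.9 to 46.2 and 18.05 to 20.01 CPM in Ctrl mice. Rnf43 was at 101, 44.1 and 31.6 CPM in Model 1 to 3 and Znrf3 at 41.9, 20.8 and 17.05 CPM, so that Model 1 lay far above the Ctrl mice, Model 2 within or just above them and Model 3 below them. Both were picked after their values were seen, and neither passed (edgeR adjusted p = 0.273 and 0.157).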

How the data were processed

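RNA of colorectal tissue from 12 mice was sequenced from libraries of the TruSeq Stranded mRNA kit. Trimming by the authors used Trimmomatic, alignment to the mouse genome (GRCm38.p6) used HISAT2, and HTSeq-count gave the reads per gene. The tool versions and the annotation are not given in the sources used here, the sample descriptions name a mirVana kit and the methods TRIzol for extraction. The authors deposited raw counts per gene without normalization, and FPKM values from Cufflinks that were proportional to the counts in 18399 of 18514 genes, the other 115 having no count.

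Here the counts were scaled by TMM and fitted in edgeR 4.0.16 (R 4.3.3) with its quasi-likelihood test, 1 fit of all 4 groups, after filterByExpr with a minimum count of 10. P-values were adjusted by Benjamini-Hochberg over the 15484 genes within each comparison, and 0.05 was the threshold. With 1 library per mouse, n is the number of mice. CPM are TMM-scaled, log2 CPM used a prior count of 2, and 95% intervals came from the fit. The summed level of a marker list adds the CPM of its genes. Count limits cover counting error only. The Frizzled genes, the pathway and marker lists (written from general knowledge) and the tests were chosen with earlier results of these data known, so no pattern is independent support. Named were all 10 members, in each pathway list up to 3 genes with the largest fold among those that passed in Model vs Ctrl with at least 1 CPM on average, and for each member the genes with the highest Pearson's r, of which a single one is not reported here. Alternatives were DESeq2 1.42.0, limma 3.58.1 on log2(FPKM + 1) and log2(FPKM + 0.1), other scaling and filtering, covariates and leaving out mice. The scripts were tested on simulated counts. Gene positions and promoter sequences are those of RefSeq for GRCm38.p6, with exonic lengths and overlaps from GENCODE M21 on the same build.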

Additional observations from a re-analysis of the deposited data

Results flagged for a closer look

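In each member, the 6 AOM/DSS mice and the 6 untreated mice were checked for a mouse far from the others by Dixon's ratio, which made 20 groups, of which chance alone gives about 1 a ratio past the 95% limit. In 2 groups a mouse was past it. Fzd8 in Ctrl_Swim 4 was at 14.5 CPM, below the other 5 untreated mice, whose lowest was at 18.1 CPM. Fzd10 in Model 1 was at 4.61 CPM, above the other 5 AOM/DSS mice, whose highest was at 2.12 CPM. Ctrl_Swim 4 also held the highest squamous epithelium (454 CPM), B cell and T cell lists of the untreated mice, and their lowest position list. Model 1 held the highest pancreatic acinar list of all mice (49611 CPM). The part of these lists in both values was not tested.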

How the results depend on the processing

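Of the 60 values (10 members in 6 comparisons), 38 kept their side of the threshold under every alternative run, 22 lost or gained a call and none that had passed was reversed, while 36 had values that changed sign without passing. Between Model and Ctrl 2 members passed, and 4 passed with DESeq2 (Fzd1, Fzd5, Fzd6 and Fzd9, beside 34.2% of all genes), 4 with each of the 3 limma fits on FPKM (Fzd1, Fzd4, Fzd7 and Fzd9, beside 24.6% to 32.6%), 1 with the fold cutoff, 1 each with the squamous, smooth muscle and mature colonocyte covariates, and 1 to 5 with 1 mouse left out. Added after seeing the data, the position covariate gave 6 (beside 37.1% of all genes). The fibroblast and colon epithelium covariates, also added then, gave 0 each and left 0 genes of the whole table. With them 463 and 1332 of 15484 genes had an unadjusted p under 0.05, 2 members in each. Both lists separated Model from Ctrl mice without overlap, so list and treatment cannot be told apart in these fits. A fit without Model 1 and Model 3 together is among the alternatives counted above. It left Model 2 as the only Model mouse, so its calls are not given. Between Model_Swim and Model 0 passed, and 0 to 3 with 1 mouse left out. Between Model_Swim and Ctrl_Swim 1 passed, and 0 passed with the fold cutoff, the squamous covariate, the stray-read term or the fibroblast covariate, and 0 to 1 with 1 mouse left out. Over both swimming states 3 passed (beside 33.4% of all genes), 1 with the fold cutoff (beside 4.29%) and 1 with the stray-read term (beside 28%). With the position covariate 7 passed, and 1 to 7 with 1 mouse left out. The shares of all genes beside these last counts are not given here, so they are not read as a result about the members. With the fibroblast or colon epithelium covariate 0 passed (1 and 3 at an unadjusted p under 0.05, beside 483 and 2555 genes). In the interaction 0 passed, and 0 to 2 with 1 mouse left out. Swimming in untreated mice passed 0 members under every alternative run. The cause of these shifts was not tested, beyond fewer mice in the fits that left mice out.

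Same-numbered libraries correlated in their deviations from the group means from -0.26 to 0.56 (median 0.00, over 15 pairs). Those with different numbers correlated from -0.56 to 0.45 (median -0.03, over 39 pairs). These values cannot settle whether mice of the same number were paired. With the number as a replicate block, 0 members passed between Model_Swim and Ctrl_Swim in place of 1, 2 over both swimming states in place of 3, and the other counts did not change. All 10 members passed the filter, so the test planned for genes kept out by it was not run. With CPM over GENCODE exonic length, the median share of Fzd8 in Ctrl mice was 6.03% in place of 10.2% and that of Fzd4 2.97% in place of 5.09%. Fzd9 and Fzd10, with 86 counts or fewer per library, have the widest intervals.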
